A study of Mus musculus with 6 samples.

Results

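Receptors for glutamate, GABA, glycine and acetylcholine were followed across 6 bulk RNA sequencing libraries of adult mouse retinal ganglion cells. The members were the rows of the count table whose symbols follow the naming of ionotropic glutamate receptors (Gria, Grik, Grid and Grin followed by a digit), metabotropic glutamate receptors (Grm), GABA-A and GABA-B receptors (Gabr, Gabbr), glycine receptors (Glra, Glrb) and nicotinic acetylcholine receptors (Chrn). The rule took 54 of 22413 genes: 4 AMPA, 5 kainate, 2 delta, 6 NMDA and 7 metabotropic glutamate receptor genes, 13 GABA-A, 2 GABA-B, 4 glycine and 11 nicotinic subunit genes. All 54 were found in RefSeq GRCm38.p6, the assembly called mm10, and are protein-coding there. Genes of these families outside the 54 are not analysed here. The knockout libraries, 3 samples, came from mice of genotype Tgfbr1flx/flx;Vglut2Cre/+, in which Cre recombinase is driven by the gene of a vesicular glutamate transporter, and the control libraries, 3 samples, from Tgfbr1flx/flx;Vglut2+/+ mice without Cre. Both groups therefore carried the floxed gene for a type I TGF-beta receptor. Deletion by such a Cre is limited to cells that use that driver or once used it. How the cells were isolated, and how many animals went into each sample, is not given in the sources used here, and p-values therefore speak of the spread between samples that may be technical replicates.

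These receptors are how a ganglion cell listens to the inner retina. Bipolar cells release glutamate onto AMPA and NMDA receptors, which are cation channels built from several subunits. Amacrine cells release GABA and glycine onto chloride channels assembled from alpha and beta subunits, with gamma subunits in most synaptic GABA-A receptors, and starburst amacrine cells release acetylcholine onto nicotinic channels. Metabotropic glutamate receptors and GABA-B receptors act through G proteins instead of a pore. A channel built from different subunits needs them in the same cell, so for such channels the combination of subunits matters beside any level.

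The floxed gene itself, Tgfbr1, had 46, 0 and 793 counts in knockouts 1 to 3 and 1, 0 and 1538 in controls 1 to 3, over the whole gene and not its floxed part, so these counts do not check the labels. Library totals ran from 8098891 to 21126291 counts in knockouts and from 7486359 to 16372260 in controls. By counting error alone, a count of 0 allows a level of up to 0.142 to 0.401 CPM (counts scaled to the library total). This limit leaves out the spread between libraries. The labelled cell type was checked on 10 ganglion cell markers, of which knockouts 1 to 3 had 6, 7 and 7 at 10 counts or more and controls 1 to 3 had 8, 8 and 5. Their summed level was 2684 to 3507 CPM in knockouts and 611 to 4777 CPM in controls, with control 3 lowest. Control 3 had 0 counts of Slc17a6 and 1 of Thy1, while Nefh was at 0 in 5 libraries and Pou4f2 in 5. Rbpms, Sncg, Pou4f1, Nefm and Nefl had 4203, 3426, 1394, 888 and 85 counts in control 3. Single markers were near 0 in other libraries too, with 1 count of Rbpms in knockout 1 and 0 of Pou4f1 in control 1. Of 6 endothelial markers, knockouts held 2, 4 and 4 at that level and controls held 3, 1 and 6. Their sum was 114 to 544 CPM in knockouts and 35.9 to 4948 CPM in controls, the top value being that of control 3. Of 10 amacrine markers, knockouts held 2, 5 and 3 and controls 2, 2 and 1, summing to 57.5 to 699.9 CPM against 237 to 326 CPM, and Chat, Slc18a3 and Slc5a7 had at most 1 count in any library. Of 8 bipolar markers in the table, knockouts held 2, 4 and 1 and controls 2, 2 and 0, and their summed levels of 148 to 180 against 0 to 802 CPM came mainly from Prkca and Isl1, which other cells also use. Of 7 Müller glia markers, knockouts held 2, 3 and 3 and controls 2, 4 and 4. Their sums of 127, 228 and 509 CPM in knockouts 1 to 3 all lay below those of controls 1 to 3, at 512, 779 and 732 CPM. Among these markers Clu had 439, 3776 and 2 counts in knockouts and 4497, 2690 and 5200 in controls, or 70.2 ± 95.3 against 355 ± 35.1 CPM (SD, n = 3 each). Horizontal cell markers summed to 1093, 954 and 352 CPM in knockouts 1 to 3 and 472, 25.9 and 677 CPM in controls 1 to 3. Among them Onecut2 had 7261, 3269 and 1149 counts in knockouts and 2, 6 and 2006 in controls. It was the 1 of the 4 tested whose knockouts lay wholly above the controls in CPM, against 10.4% of all tested genes. Calb1 had 6766, 15539 and 1701 counts in knockouts and 4726, 188 and 8510 in controls, and Lhx1 had 1212, 1212 and 0 against 481, 0 and 0. Slc12a7 went the other way, with 0, 136 and 0 against 272, 0 and 575. Photoreceptor, microglia and blood markers summed to at most 136, 9.23 and 118 CPM in any library. Crx had 1576 counts in control 1 and Ptprc 1639 in knockout 1. In bulk RNA, fewer cells of a type and less RNA per cell cannot be told apart.

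More receptor genes were detected in each knockout library than in any control library. With detection set at 10 counts, knockouts 1, 2 and 3 held 16, 15 and 12 of the 54 genes, and controls 1, 2 and 3 held 10, 10 and 3. Group means stood at 14.3 ± 2.08 genes in knockouts and 7.67 ± 4.04 in controls (SD, n = 3 each), and the groups did not overlap. The table as a whole showed the same order: 25.8% to 32.2% of the 22413 were detected in a knockout library and 19.0% to 21.7% in a control library, against 22.2% to 29.6% and 5.56% to 18.5% of the receptors. The ratio of the group means was 1.87 for receptors and 1.45 for all genes, and no test was made of the gap between them. Control 3 stood apart from the rest of the libraries in this respect, with 5.56% of receptors beside 21.7% of all genes, and it was also the library with the fewest ganglion cell markers and the most endothelial marker RNA. The mean difference was 6.67 genes with all libraries and 4.33 without control 3. Müller glia marker sums were also lower in each knockout, but narrowly, at 509 CPM in knockout 3 and 512 CPM in control 1. Of the 3 such markers tested, 2 had a positive log2 fold change. The knockouts lay wholly below the controls for 1 of them, Clu, against 2.3% of all tested genes. The part that these marker differences have in the receptor counts was not tested.

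**Figure D1:**
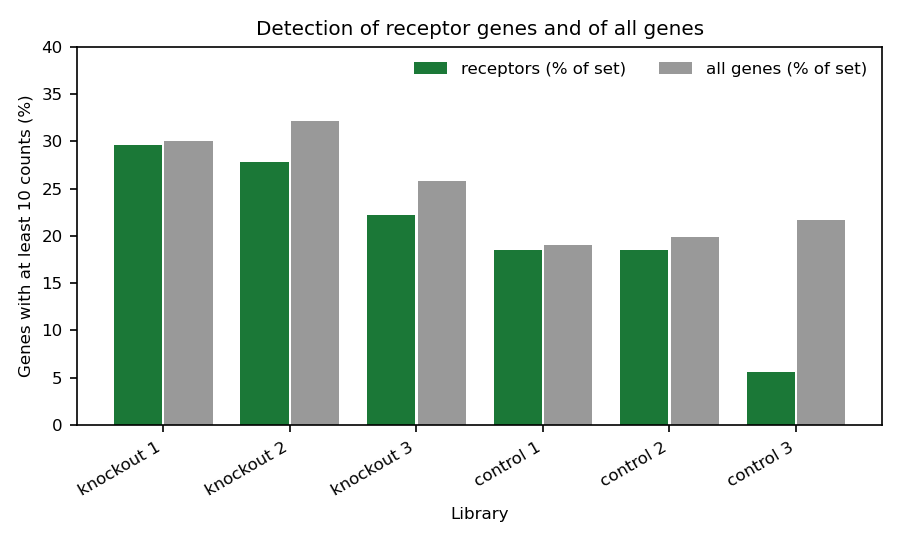
Share of genes with at least 10 counts in each library, in percent of the set, for the 54 receptor genes (green) and for all 22413 genes (grey), with 1 bar per library and no error. Receptors follow all genes in 5 libraries and fall to 5.56% in control 3.

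Detection was uneven inside each genotype as well. Of the 54 genes, 32 reached 10 counts somewhere, and 15 of these (46.9%) did so in 1 library only, against 32.7% of all genes detected somewhere. A further 7 of the 32 (21.9%) were detected in 4 libraries, against 12.6% of all detected genes, and 0 were detected in 5 or 6 libraries, where all genes had 10.2% and 9.99%. Of 324 gene-by-library values, 181 were 0, 77 lay between 1 and 9 counts (23.8%, against 19.5% over all genes), and 66 were at 10 counts or more, 55 of them at 100 or more. For 11 of the 32 genes at least 95% of the CPM summed over libraries came from 1 library. By genotype, 14 of the 32 (43.8%) were detected in knockouts alone, 5 (15.6%) in controls alone and 13 (40.6%) in both, against 31.8%, 12.2% and 55.9% of all detected genes. The largest number of shared receptor genes between 2 libraries was 9, between knockouts 1 and 2, which is 56.3% of the genes detected in the first and 60.0% of those in the second. Knockout 3 and control 3 shared 0, and controls 1 and 3 shared 0.

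**Figure D2:**
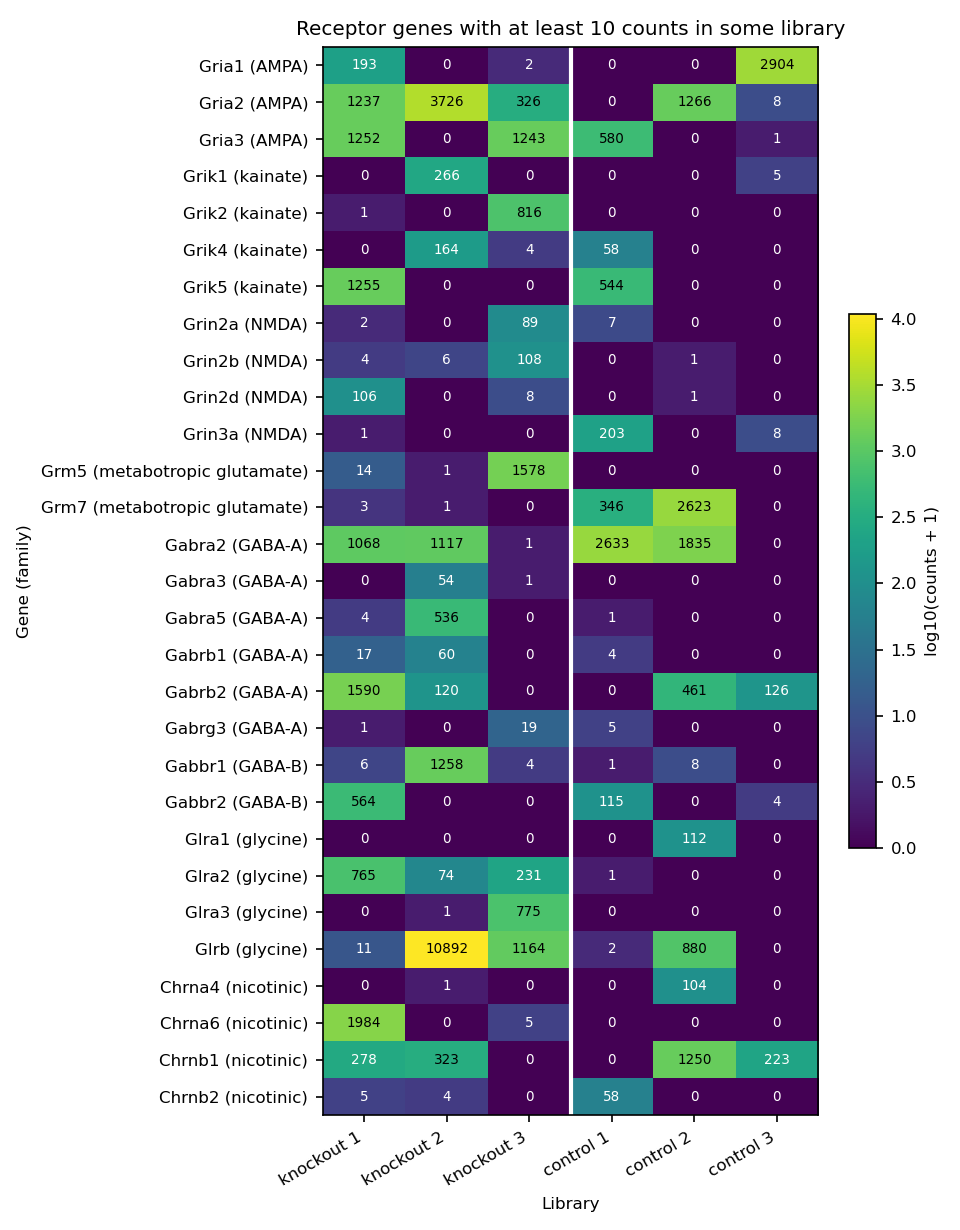
Raw counts (printed) and log10(counts + 1) (colour) of 29 of the 32 receptor genes with at least 10 counts in some library, with genes in rows by family and libraries in columns, knockouts left of the white line and controls right of it. Most rows are filled in 1 to 4 libraries and near 0 in the rest, and the column of control 3 has 3 values of 10 counts or more, for Gria1, Gabrb2 and Chrnb1.

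Summed over the 54 genes, receptors took 1379, 1467 and 1128 CPM of knockouts 1, 2 and 3, and 623, 1197 and 201 CPM of controls 1, 2 and 3. The knockout mean was 1324 ± 176 CPM and the control mean 673 ± 499.9 CPM (SD, n = 3 each), a ratio of 1.97. Control 2 lay above knockout 3, so the groups overlapped. As a share of all counts this is 0.138% (exact 95% interval 0.136% to 0.140%) in knockout 1, 0.147% (0.145% to 0.148%) in knockout 2 and 0.113% (0.110% to 0.115%) in knockout 3. In the controls it was 0.0623% (0.0609% to 0.0637%), 0.120% (0.117% to 0.122%) and 0.0201% (0.0194% to 0.0208%). These intervals cover counting error only, since PCR copies of a molecule are counted as separate reads. On the log2 scale the ratio was 0.98 with all libraries, 1.69 without control 2 and 0.54 without control 3. GABA-A receptors were the largest family by CPM in 5 of the 6 libraries, and AMPA receptors in control 3.

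**Figure D3:**
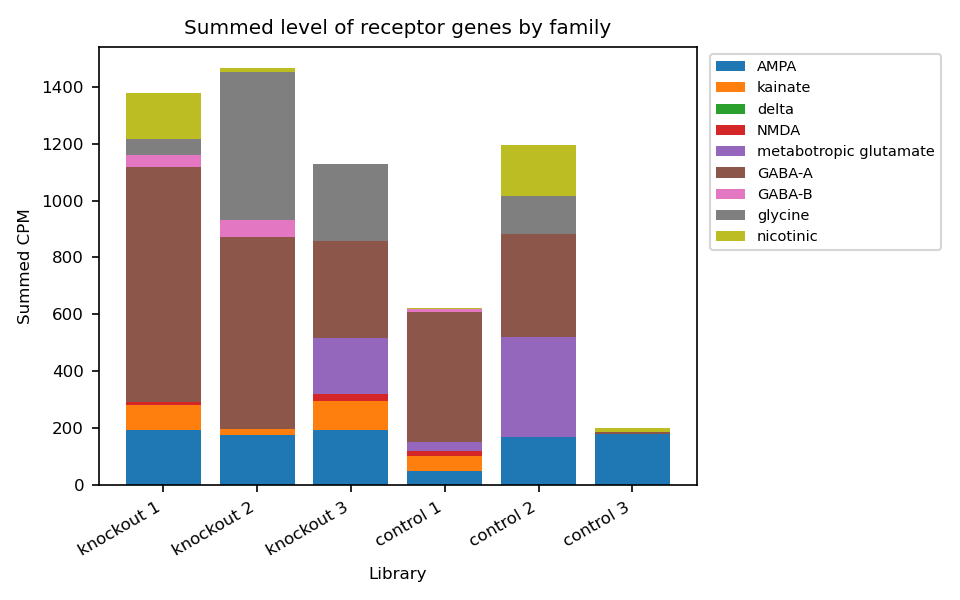
Summed CPM of the 54 receptor genes in each library, stacked by family, with knockouts left and controls right and no error bars because each bar is 1 library. Knockouts reach 1128 to 1467 CPM and controls 201 to 1197 CPM, and nearly all of control 3 is AMPA receptor RNA.

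None of the receptor genes differed between knockout and control past the adjusted threshold in edgeR or limma voom, and 2 did in DESeq2. The low-count filter kept 10 of the 54 (18.5%, against 25.6% of all genes), and in edgeR's quasi-likelihood test 0 of these had a Benjamini-Hochberg adjusted p under 0.05, with a background of 0% of 5727 genes. At an unadjusted p under 0.05 there was 1 of 10 receptor genes, Glra2, against 4.91% of all tested genes (4.49% higher and 0.419% lower in the knockout). The fitted log2 fold change, knockout over control, was positive for 8 and negative for 2, with a median of 1.74 beside 0.14 for all tested genes, of which 54.2% were positive. The knockouts lay wholly above the controls for 1 of the 10, again Glra2, against 10.4% of all tested genes, and below for 0, against 2.3%. DESeq2 gave an adjusted p to 16 receptor genes and called 2 of them (12.5%, against 11.9% of all genes given one), Glra2 as higher and Grm7 as lower in the knockout. limma voom called 0 of 10, against 1.54% of all genes, and had 2 at an unadjusted p under 0.05. The shares of receptor genes called were near the background in each tool. The biological coefficient of variation over the tested genes was 2.04, and the standard error of the log2 fold change was 3.07 for Gabra2 and 4.18 for Glra2.

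**Figure D4:**
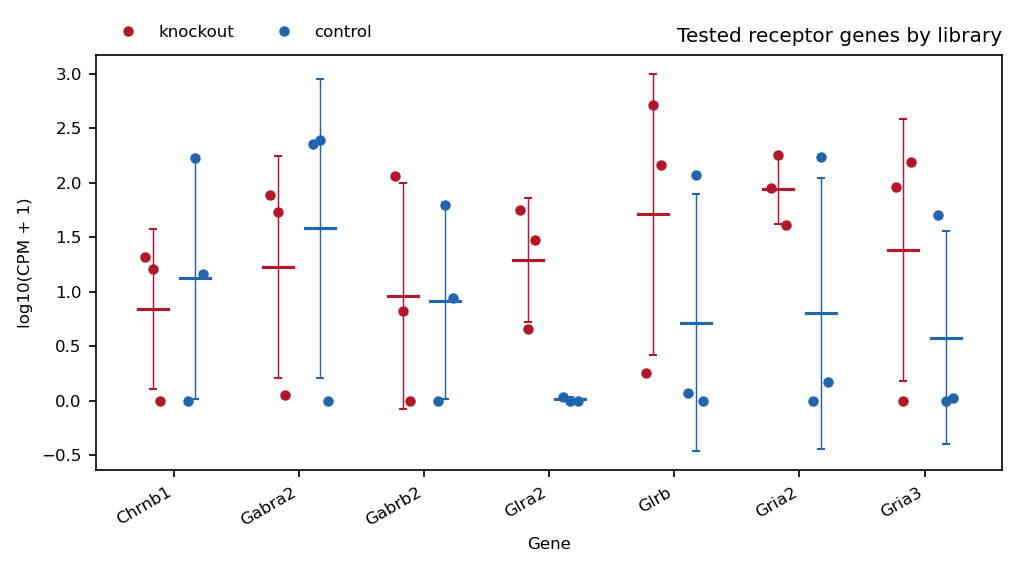
Level of 7 of the 10 tested receptor genes as log10(CPM + 1), with a point for each library, knockouts in red left of controls in blue, and bars at the mean with SD (n = 3 each). Points of a genotype spread from 0 to over 100 CPM for most genes, and Glra2 is the gene whose genotypes do not overlap.

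AMPA receptors, the fast glutamate channels, were detected in every library but through different genes. Their summed level was 193, 176 and 194 CPM in knockouts 1 to 3 and 49.96, 169 and 178 CPM in controls 1 to 3, so 5 of the libraries were nearly level. Gria2 encodes the subunit that makes edited AMPA receptors nearly impermeable to calcium. It had 1237, 3726 and 326 counts in knockouts and 0, 1266 and 8 in controls, or 102 ± 69.0 against 56.5 ± 97.5 CPM (SD, n = 3 each; log2 fold change 1.19 ± 3.10 SE). All knockouts thus held Gria2, while among controls it was plain in control 2 alone. Gria3 had 1252, 0 and 1243 counts in knockouts and 580, 0 and 1 in controls, and the groups overlapped at 0 (log2 fold change 2.15 ± 3.52 SE). Gria1 had 193, 0 and 2 counts in knockouts and 0, 0 and 2904 in controls. Control 3 supplied 92.6% of the CPM of Gria1 over all libraries, and Gria1 made up 99.7% of that library's AMPA receptor RNA. Whether this is linked to the endothelial RNA of control 3 was not tested. Gria4 had 1 count in all. On FPKM, which divide by gene length and so allow levels of different genes to be set side by side, Gria1 in control 3 (28.3 FPKM) was higher than Gria2 in any library (at most 15.5 FPKM).

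Kainate receptors mix low-affinity subunits, which form channels on their own, with the high-affinity subunits Grik4 and Grik5, which need a low-affinity partner. Low-affinity genes were detected in knockouts 2 and 3 and in 0 controls. Grik1 had 0, 266 and 0 counts in knockouts and 0, 0 and 5 in controls, and Grik2 had 1, 0 and 816 in knockouts and 0 in every control. High-affinity Grik5 had 1255, 0 and 0 counts in knockouts and 544, 0 and 0 in controls, while Grik4 had 0, 164 and 4 in knockouts and 58, 0 and 0 in controls. Each of these genes was therefore confined to 1 library of a genotype at 10 counts, and knockout 2 was the only library that held a gene of both kinds. The family summed to 90.1, 20.4 and 101 CPM in knockouts and 51.9, 0 and 0.305 CPM in controls.

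NMDA receptors, which add a slow calcium-permeable current, were sparse by the 6 genes followed here. These are GluN2 and GluN3 genes, and Grin1, the gene of the GluN1 subunit, was not among the genes followed. GluN2 subunits, which bind glutamate, reached 10 counts in knockouts 1 and 3 and in 0 controls. Grin2b had 4, 6 and 108 counts in knockouts and 0, 1 and 0 in controls, and Grin2a had 2, 0 and 89 in knockouts and 7, 0 and 0 in controls. Grin2d had 106, 0 and 8 counts in knockouts and 0, 1 and 0 in controls. The glycine-binding subunit Grin3a was seen in a control instead, with 1, 0 and 0 counts in knockouts and 203, 0 and 8 in controls. At 8.40, 0.284 and 25.4 CPM in knockouts and 18.1, 0.401 and 0.550 CPM in controls, the family sum overlapped between genotypes. Of the delta receptors, which take part in synapse organisation, Grid1 had 1, 0 and 0 counts in knockouts and 4, 0 and 0 in controls.

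Metabotropic glutamate receptor RNA came mainly from Grm7 in controls 1 and 2 and from Grm5 in knockout 3. In knockouts 1 and 2 and in control 3 the family summed to 1.72, 0.331 and 0 CPM. Grm7, a presynaptic receptor that lowers transmitter release, had 3, 1 and 0 counts in knockouts and 346, 2623 and 0 in controls. The ratio of depth-scaled group totals was 0.00111 (exact 95% counting interval 0.000301 to 0.00284, which leaves out the spread between libraries). DESeq2 gave Grm7 a log2 fold change of -10.4 with an adjusted p of 0.0124. Grm7 did not pass edgeR's low-count filter, and control 3 held 0 counts, as did knockout 3. Grm5, which couples to phospholipase C, had 14, 1 and 1578 counts in knockouts and 0 in every control, with 99.5% of its CPM in knockout 3 and 1 count in knockout 2. Grm6, the receptor by which ON bipolar cells sense photoreceptor glutamate, had 1, 1 and 0 counts in knockouts and 4, 0 and 0 in controls. Grm3, Grm4 and Grm8 stayed under 10 counts in every library.

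GABA-A receptors were the family with the most RNA. They summed to 827, 674 and 343 CPM in knockouts 1 to 3 and 457, 361 and 7.76 CPM in controls 1 to 3, with means of 615 ± 247 and 275 ± 236 CPM (SD, n = 3 each), and control 1 and control 2 lay above knockout 3. Of the 13 genes, knockouts detected 5, 8 and 3 and controls 3, 4 and 1. At least 1 alpha, 1 beta and 1 gamma gene, the set that a typical synaptic receptor draws on, were detected together in 3 of 3 knockouts and in 1 of 3 controls, control 2. Control 1 lacked a beta gene at 10 counts, and control 3 held a beta gene alone. In knockout 3 the gamma gene was Gabrg3 with 19 counts, near the detection limit. Detection over all genes was also higher in each knockout, at 25.8% to 32.2% of genes against 19.0% to 21.7% in controls. What part this has in the combinations was not tested, and bulk RNA does not show which genes share a cell.

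Among alpha subunits, which shape how a GABA-A receptor responds to benzodiazepines, Gabra2 had 1068, 1117 and 1 counts in knockouts and 2633, 1835 and 0 in controls. Its level was 43.2 ± 39.2 against 157 ± 137 CPM (SD, n = 3 each), and its fold change was negative at -1.66 ± 3.07 SE on the log2 scale, but 0.23 in limma voom. Its 2 highest libraries were controls, but the lowest was also a control. Gabra5, known for receptors outside synapses, had 4, 536 and 0 counts in knockouts and 1, 0 and 0 in controls, and Gabra3 had 0, 54 and 1 in knockouts and 0 in every control. Gabra4 stayed under 10 counts.

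The beta subunits form the GABA-binding site with alpha subunits. Gabrb2 had 1590, 120 and 0 counts in knockouts and 0, 461 and 126 in controls, or 39.9 ± 64.3 against 23.1 ± 33.6 CPM (SD, n = 3 each; log2 fold change 1.28 ± 3.33 SE). The genotypes overlapped, and the sign turned to -2.76 without knockout 1. Gabrb1 had 17, 60 and 0 counts in knockouts and 4, 0 and 0 in controls. The epsilon gene Gabre and the rho genes Gabrr1 and Gabrr3, of which rho receptors are typical of bipolar cells, had at most 4 counts in any library.

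GABA-B receptors need Gabbr1, which binds GABA, and Gabbr2, which carries the signal to the G protein. No library held both at 10 counts. Gabbr1 had 6, 1258 and 4 counts in knockouts and 1, 8 and 0 in controls, and Gabbr2 had 564, 0 and 0 in knockouts and 115, 0 and 4 in controls. Knockout 2 thus supplied 96.6% of the summed CPM of Gabbr1, and knockout 1 supplied 79.9% of that of Gabbr2.

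Glycine receptors included the tested gene whose genotypes did not overlap. Their sum was 55.7, 519 and 268 CPM in knockouts 1 to 3 and 0.258, 133 and 0 CPM in controls 1 to 3, and control 2 lay above knockout 1. An alpha gene, which binds glycine, and the beta gene Glrb, which ties the receptor to the scaffold gephyrin, were detected together in 3 of 3 knockouts and in 1 of 3 controls, control 2. Knockout 1 counts here through 11 counts of Glrb, near the detection limit. As with the GABA-A set, each knockout also detected more of all genes than any control, and its part in this was not tested. Glra2 had 765, 74 and 231 counts in knockouts and 1, 0 and 0 in controls. All knockouts were above all controls, at 29.0 ± 25.7 against 0.0287 ± 0.0497 CPM (SD, n = 3 each). The ratio of depth-scaled group totals was 879 with an exact 95% counting interval of 157 to 34762, which leaves out the spread between libraries. The edgeR log2 fold change was 9.60 ± 4.18 SE with an unadjusted p of 0.0318 and an adjusted p of 0.840. DESeq2 gave an adjusted p of 0.0116 and limma voom one of 0.221. Glra2 passed the low-count filter through its 3 knockouts alone, so a difference was built into its being tested. Of all genes detected somewhere, 2.29% had the same pattern of detection in all 3 knockouts and no control, and of the 32 detected receptors it was 1 (3.13%).

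The other glycine alpha genes were each seen in 1 library. Glra3 had 0, 1 and 775 counts in knockouts and 0 in every control, and Glra1, the adult alpha subunit of spinal cord, had 0 in every knockout and 0, 112 and 0 in controls. A different alpha gene thus stood beside Glrb in control 2 than in the knockouts. Glrb had 11, 10892 and 1164 counts in knockouts and 2, 880 and 0 in controls, or 220.0 ± 266 against 39.2 ± 67.8 CPM (SD, n = 3 each; log2 fold change 2.75 ± 3.10 SE). Its 136 FPKM in knockout 2 was the highest FPKM of any receptor gene in any library. Knockout 2 was also the library with the most amacrine marker RNA, 699.9 CPM, of which Gad1 had 4720 counts. Whether the 2 are linked was not tested.

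Gria2 and Glrb lie 39.4 kb apart on chromosome 3 (80681450 to 80804227 and 80843598 to 80913660) and reached 10 counts in the same 4 libraries, knockouts 1 to 3 and control 2, with Glrb at 11 counts in knockout 1. Their promoters, 250 bases before to 50 after the start in RefSeq GRCm38.p6, are shown because the pair was detected together. The entry for Gria2 uses a transcript start inside the span of the gene given above, and that for Glrb the end of its span. Capitals mark matches, on either strand, to the GC box GGGCGG and the E box CANNTG, and no match overlaps another. Both promoters are on the minus strand, at chr3:80802786-80803085 for Gria2 and chr3:80913611-80913910 for Glrb, and are printed 5′ to 3′.
Gria2: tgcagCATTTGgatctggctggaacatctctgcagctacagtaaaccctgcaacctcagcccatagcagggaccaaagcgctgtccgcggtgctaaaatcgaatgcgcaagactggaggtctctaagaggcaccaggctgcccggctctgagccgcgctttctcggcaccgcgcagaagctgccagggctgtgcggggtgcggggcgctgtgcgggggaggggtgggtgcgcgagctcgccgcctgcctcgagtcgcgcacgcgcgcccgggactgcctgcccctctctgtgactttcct
Glrb: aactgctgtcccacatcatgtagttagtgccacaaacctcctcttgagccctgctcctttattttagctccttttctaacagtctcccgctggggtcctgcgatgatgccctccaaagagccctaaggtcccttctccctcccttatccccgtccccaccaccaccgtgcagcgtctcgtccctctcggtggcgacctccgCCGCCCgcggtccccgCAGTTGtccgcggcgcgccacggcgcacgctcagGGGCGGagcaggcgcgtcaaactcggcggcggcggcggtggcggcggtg
Both have 65.7% G and C, beside a median of 52.7% over 32851 promoters in the same table. The median over the 44 receptor promoters was 59.5%. Gria2 has 0 GC boxes and 1 E box, and Glrb has 2 GC boxes and 1 E box. Neither has a TATA box (TATAAA) or the palindromic SMAD element GTCTAGAC. A GC box is in 35.7% of all promoters in the table and in 24 of the 44 receptor promoters (54.5%), which belong to 36 of the 54 genes. For the E box the shares are 72.3% and 56.8%, for the TATA box 13.6% each, and for the palindromic SMAD element 0.213% and 0%. These are matches of letters and not evidence of binding.

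Some other receptor genes also lie side by side. Of Gabra2, Gabra4 and Gabrb1 in a cluster on chromosome 5, knockouts detected 2, 2 and 0 and controls 1, 1 and 0. Chrnb3 lies 3.5 kb from Chrna6 on chromosome 8, and the library with 1984 counts of Chrna6 had 0 of Chrnb3. Receptor genes were long, with a median of 5742 bases in the lengths behind the deposited FPKM, against 3278 bases for all genes, so a given number of counts stands for a lower FPKM.

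Nicotinic subunits, which carry the acetylcholine signal of starburst cells, were mostly near 0. Of 11 genes, knockouts detected 2, 1 and 0 and controls 1, 2 and 1. Chrna6, an alpha subunit known from ganglion cell axons, had 1984, 0 and 5 counts in knockouts and 0 in every control, with 99.6% of its CPM in knockout 1. Chrna4 and Chrnb2, which form the common brain receptor together, did not reach 10 counts in the same library: Chrna4 had 0, 1 and 0 counts in knockouts and 0, 104 and 0 in controls, and Chrnb2 had 5, 4 and 0 in knockouts and 58, 0 and 0 in controls. Chrnb1, known as the beta subunit of the muscle receptor, was the most widely detected, with 278, 323 and 0 counts in knockouts and 0, 1250 and 223 in controls. Its level was 11.7 ± 10.4 against 60.2 ± 92.7 CPM (SD, n = 3 each), and its log2 fold change of -1.95 ± 3.35 SE turned to 0.99 without control 2. Chrne and Chrng, also of the muscle type, had at most 4 counts in any library, and Chrna1 and Chrnd were not among the genes followed. Chrna7, the subunit of homomeric receptors, had 2, 0 and 0 counts in knockouts and 0 in every control.

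**Figure D5:**
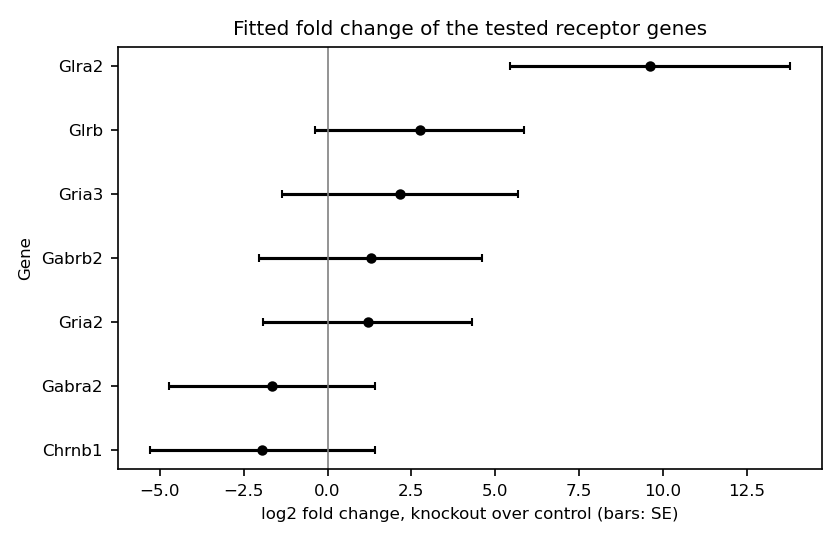
edgeR log2 fold change, knockout over control, of 7 of the 10 tested receptor genes, with genes down the page and bars of 1 standard error to each side. The bars of 6 of the 7 genes shown span 0, and the values run from -1.95 for Chrnb1 to 9.60 for Glra2.

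Proteins that hold or tune these receptors were taken as 4 lists, also without a call: 0 genes of any list had an adjusted p under 0.05 in edgeR's test. Of 22 inhibitory scaffold and auxiliary genes in the table, 12 were tested, 6 had a positive log2 fold change, the median was 0.19, and 2 had an unadjusted p under 0.05, both higher in the knockout. Over all tested genes 54.2% were positive, the median was 0.14 and 4.91% had such a p, 4.49% on the higher side. The 2 were Clptm1, which limits the forward traffic of GABA-A receptors, with 338, 966 and 204 counts in knockouts and 0 in every control, and Nlgn2, an adhesion protein of inhibitory synapses, with 686, 302 and 49 in knockouts and 0 in every control. Both passed the low-count filter through the knockouts alone. Kctd12, an auxiliary subunit of GABA-B receptors, had 1638, 621 and 95 counts in knockouts and 0, 0 and 15553 in controls, and Trak2, a trafficking adaptor, had 24, 69 and 0 against 0, 0 and 2478, so that for both the library rich in endothelial RNA was the highest. Of 22 excitatory scaffold genes, 8 were tested, 5 were positive and the median was 0.62. Dlgap1 had 5, 4673 and 232 counts in knockouts and 0, 28 and 222 in controls, and Dlg2, a PSD-95 relative, had 85, 197 and 1 against 1274, 353 and 151. Nsf, which stabilises AMPA receptors at the membrane, had 1937, 2805 and 580 counts in knockouts and 0, 0 and 1715 in controls, and Shank2 had 296, 814 and 1 against 2558, 0 and 0. Of 15 AMPA and kainate auxiliary genes in the table, 2 were tested, with a median of 1.79: Cacng3, which aids AMPA receptor traffic, with 2282, 162 and 468 counts in knockouts and 180, 0 and 0 in controls, and Olfm1 with 4007, 7031 and 4443 against 8606, 5267 and 889. Of 6 nicotinic chaperone and modulator genes, 0 were tested.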

How the data were processed

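Per the labels' protocols, the VAHTS Universal V6 kit turned 1 ng of RNA, purified on RNeasy Micro columns, into each library. The submitters' processing notes name fastp, HISAT2, HTSeq, R 3.2.0, DESeq2 and the mm10 build without a role for each; annotation and strand setting, not given in the sources used here, bear on overlapping and antisense genes, whose reads cannot be told apart. The authors deposited 2 tables over 22413 genes, raw counts and FPKM, and 0 columns belonged to other samples. FPKM were found to be counts over column total and gene length with no other scaling, since the length they imply agreed between libraries to 8.9e-09 of its value. Counts were the main measure, CPM were counts over the column total, and FPKM served for setting genes side by side.

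Knockout and control were compared on all 6 libraries with edgeR 4.0.16 in R 4.3.3 (TMM, filterByExpr, robust quasi-likelihood F test, genotype as the only term, Benjamini-Hochberg adjustment over all 5727 tested genes, threshold 0.05). The SE of an edgeR log2 fold change is its size over the square root of its F. DESeq2 1.42.0 with its defaults and limma 3.58.1 voom were alternatives. DESeq2's independent filtering ran at its default alpha of 0.1 and not at 0.05, which can change its number of calls, and it left the adjusted p missing for 38 receptor genes. Each tool was first run on simulated counts with known changes, at a spread far below that of these data. That run does not show how the tools perform at the spread seen here. Detection means at least 10 counts in a library. The highest level that a count of 0 allows was taken as 3 counts over the library total, which covers counting error only. Intervals of group ratios and shares are exact binomial and leave out the spread between libraries. Values summed over receptor genes got no test. Named genes were the receptor genes that passed filterByExpr, other detected receptor genes by family, and up to 4 genes of each related list with the smallest p. A few receptor genes are left out of the text and plots. The receptor genes and lists were chosen with earlier results of these data known. Promoter sequences and coordinates are from RefSeq GRCm38.p6. Alternatives were other scaling, no filter, other tools, a replicate block, other detection limits and each library left out in turn. Tables and figures used Python 3.11.15, pandas 2.3.3, scipy 1.17.1 and matplotlib 3.10.9.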

Additional observations from a re-analysis of the deposited data

How the results depend on the processing

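The number of receptor genes called was 0 with DESeq2's size factors in edgeR, without the low-count filter, with limma voom, with the replicate block and without any 1 library, and 2 with DESeq2. Over all genes, calls numbered 0 in the edgeR fit, 840 with DESeq2, 88 with limma voom, and 0 to 7 with 1 library left out; the cause was not tested. Signs turned for Chrnb1 without control 2 (0.99, in a range of -2.71 to 0.99 with 1 library left out), for Gabra2 with limma voom (0.23), and for Gabrb2 with the replicate block (-2.96) and without knockout 1 (-2.76, in a range of -2.76 to 3.66), and in no other of the 110 fits of single receptor genes. The excess of detected receptor genes in knockouts was 4.33 to 7.83 genes over all alternatives, and the log2 ratio of summed CPM 0.54 to 1.69. The labels do not pair same-numbered samples: deviations from the group means correlated at -0.0169, 0.0220 and 2.21e-05 across genes for numbers 1, 2 and 3. With the replicate block 0 genes were called, as without it. At totals of 7486359 to 21126291 counts, a receptor under 0.142 to 0.401 CPM cannot be told from 0 by counting error alone. That limit leaves out the spread between libraries. With a coefficient of variation of 2.04 and 3 libraries a group, a p that misses the threshold does not show that levels were alike.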
